A study of Mus musculus with 10 samples.

Results

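The genes described here encode the proteasome and the proteins that build, open or bind it. They were chosen by symbol: every protein-coding mouse gene named Psma, Psmb, Psmc, Psmd, Psme, Psmf or Psmg followed by a digit, apart from the immunoproteasome subunits Psmb8, Psmb9 and Psmb10. The rule took in 48 of the 46152 genes counted. Those with counts in at least 1 library comprised 16 genes of the core particle (8 Psma, 8 Psmb) and 19 of the cap (6 Psmc, 13 Psmd). The others were 5 Psme activators, 4 Psmg assembly factors, the inhibitor Psmf1, and Psmc3ip and Psme3ip1, which encode binding partners and not subunits. The cap gene Psmd10 had 0 counts in every library. Of the 48 genes, 47 had counts in at least 1 library and 45 passed a filter of more than 1 CPM, the count scaled to the depth of its library, in at least 3 libraries.

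Microglia were isolated from male and female C57BL/6J mice, aged 8 to 12 weeks in the study's methods, that carried no engineered allele. The 5 mice of the treated group received GW2580, which blocks the kinase of the receptor CSF1R, by oral gavage at 80 mg/kg/d for 8 days. The 5 control mice received its vehicle, 0.1% Tween 80 in 0.5% hydroxymethyl propyl-cellulose. Each group held 2 male mice (replicates 1 and 2) and 3 female mice (replicates 3 to 5), and each mouse gave 1 library. Cells were enriched on CD11b, which monocytes and granulocytes also carry, so the libraries are of bulk material in which fewer cells of a type and less RNA per cell cannot be told apart. Between 12550418 and 26079343 fragments were assigned to genes in each library.

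The proteasome degrades proteins that carry a chain of ubiquitin. Its core is a barrel of stacked rings, in which alpha subunits (Psma) form the gate and beta subunits (Psmb) carry the protease sites inside. The cap binds the tagged protein, removes the ubiquitin and, through a ring of ATPases (Psmc) held by non-ATPase subunits (Psmd), unfolds the protein and feeds it into the core. Activators (Psme) open the core without ubiquitin, and assembly factors (Psmg) help to form its alpha ring. In macrophages and microglia the proteasome also processes antigens and controls signalling by NF-kappa B.

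All 9 microglia markers examined passed the filter, and their summed level ran from 12090 to 27565 CPM with vehicle and from 17038 to 56236 CPM with GW2580. Vehicle 5, lowest in this sum, had 25666 CPM of 4 choroid plexus and ependyma markers against 1201 to 2951 CPM in Vehicle 1 to 4, and Vehicle 2 had 15105 CPM of 6 oligodendrocyte markers against 86.5 to 3229 CPM in the other vehicle libraries. Vehicle 1 had 12682 CPM of 4 monocyte and granulocyte markers, against 152 to 3578 CPM in the other 9 libraries. The percentage of counting records on no annotated exon was 38.4 to 49.1% with vehicle and 38.7 to 60.1% with GW2580, highest in GW2580 4 (60.1%) and GW2580 1 (56.1%). With GW2580 the choroid plexus and ependyma sum was 149 to 3522 CPM (median 718, against 1729 with vehicle) and the oligodendrocyte sum 111 to 1396 CPM. Ttr, Folr1 and Foxj1, the 3 choroid plexus and ependyma markers tested, were called lower with GW2580. So were the oligodendrocyte genes Sox10, Olig2 and Mbp (3 of 5 tested) and the neuronal gene Rbfox3 (1 of 6), against 6.70% of all genes. The microglia gene Cx3cr1 (1 of 9) and the border macrophage gene Mrc1 (1 of 3) were called higher, against 4.01% of all genes. By exact two-sided permutation p was 0.0159 for Foxj1, 0.0476 for Sox10 and 0.0238 for Cx3cr1. It was over 0.05 for Ttr (0.0952), Folr1 (0.143), Olig2 (0.246), Mbp (0.698), Rbfox3 (0.0794) and Mrc1 (0.0873). Mbp was at 14645 CPM in Vehicle 2. The markers called are named after their values were seen. Counts, class medians and the leading members are given with and without the libraries that stood apart. The part of other cell types and of RNA quality in the results was not tested.

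Promoter sequences are shown for 3 core genes that fell with GW2580 and for the cap gene with the largest positive difference, because proteasome genes are known to be controlled together. RefSeq promoters (GRCm38.p6) were at hand for 40 of the 48 genes. Each window holds the 120 bases before the RefSeq start, 5′ to 3′ on the gene's strand, with matches to TGACNNNGC, the core of the antioxidant response element that factors of the Nrf family bind, or to CCAAT, the box bound by NF-Y, in capitals. The windows lie at chr14:54617996-54618115 (minus strand, Psmb5), chr13:14613122-14613241 (plus strand, Psma2), chr11:97703314-97703433 (plus strand, Psmb3) and chr1:86064499-86064618 (plus strand, Psmd1), and no annotated exon overlaps them.
Psmb5: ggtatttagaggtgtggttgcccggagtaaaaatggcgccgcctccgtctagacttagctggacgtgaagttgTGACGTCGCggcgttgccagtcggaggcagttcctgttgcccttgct
Psma2: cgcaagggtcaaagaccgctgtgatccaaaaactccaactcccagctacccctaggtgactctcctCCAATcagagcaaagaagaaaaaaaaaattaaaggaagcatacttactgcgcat
Psmb3: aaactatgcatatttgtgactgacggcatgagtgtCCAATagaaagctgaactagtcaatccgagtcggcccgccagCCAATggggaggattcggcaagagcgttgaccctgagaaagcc
Psmd1: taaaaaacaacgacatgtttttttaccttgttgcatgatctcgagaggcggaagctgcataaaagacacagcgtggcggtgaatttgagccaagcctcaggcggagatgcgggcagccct

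The Psmb5 window holds 1 match to TGACNNNGC, 47 bases before the start, Psma2 holds 1 CCAAT and Psmb3 holds 2, while Psmd1 holds a match to neither. Both strands of the 250 bases before each start were searched, and no member's promoter held both motifs. TGACNNNGC occurred in 5 of the 40 promoters (12.5%) and in 10.2% of all 27025 promoters. CCAAT occurred in 14 of 40 (35.0%) and in 34.5% of all promoters. Within the particles, CCAAT was in 7 of 12 core promoters and 5 of 17 cap promoters, that of Psmd10 included. A match is a string of letters and not a bound site.

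In the vehicle libraries the median level was 126 CPM per kilobase of exon over the core genes tested, 59.4 over the cap, 33.4 over the activators and 32.6 over the assembly factors. Among the beta subunits, Psmb3 was at 359 ± 133 CPM per kilobase and Psmb2 at 338 ± 99.0 (SD, n = 5), both structural members of the beta ring. Psmb5 and Psmb7, which carry the chymotrypsin-like and the trypsin-like protease sites, were at 135 ± 30.7 and 63.8 ± 9.41 CPM per kilobase. Psma7 (165 ± 51.7) and Psma2 (162 ± 35.7) led the alpha subunits, and their levels differed by less than their spread.

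The core members of restricted use were low. Psma8, an alpha subunit of meiotic cells, was at 2.55 ± 0.223 CPM per kilobase, and Psmb11, the beta subunit of thymic cortical epithelium, at 0.368 ± 0.296 CPM per kilobase. In the cap the ATPases ran from 24.7 (Psmc6) to 147 (Psmc5) CPM per kilobase with a median of 101. The non-ATPase genes ran from 16.8 (Psmd9) to 136 (Psmd4, a ubiquitin receptor) CPM per kilobase with a median of 48.3. Psmd5 and Psmd9 encode chaperones of the ATPase ring and are counted with the cap by their symbols. Psme1 and Psme2, which form an interferon-induced activator ring, stood at 248 ± 58.1 and 222 ± 86.3 CPM per kilobase, far above Psme3 (33.4 ± 30.0), the nuclear activator, and Psme4 (2.98 ± 1.21), the single-chain activator.

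**Figure D1:**
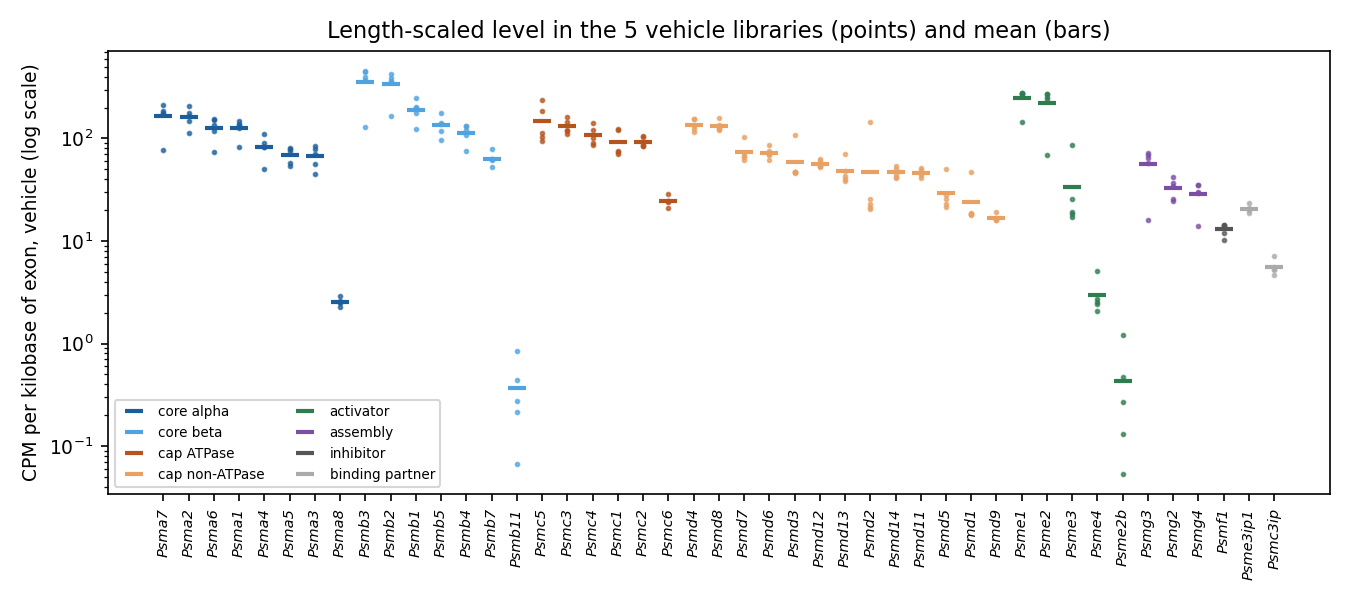
Level of each of the 45 proteasome genes tested in the 5 vehicle libraries, as CPM per kilobase of exon on a log scale, grouped by particle; points are libraries and bars are means. Core beta genes reach 359 CPM per kilobase, while Psma8, Psmb11, Psme4 and Psme2b lie below 3.

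No usable level could be had for 3 members. Psmb6, which carries the caspase-like protease site, had 58 counts over all 10 libraries, Psmg1 had 3 and Psmd10, a chaperone of the ATPase ring, had 0. These were the only members annotated on 2 sequences of the assembly, and fragments that align to more than 1 place were not counted. All 45 members on 1 sequence passed the filter. Of all protein-coding genes, 25.9% of the 1117 on 2 or more sequences had 0 counts in every library, against 1.79% of the 20748 on 1 sequence. The low counts of Psmb6, Psmg1 and Psmd10 are therefore not read as low expression. Of the immunoproteasome subunits left out by the rule, Psmb8 (0 counts) and Psmb9 (74 counts) were likewise annotated on 4 sequences.

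GW2580 was compared with vehicle to ask how blocking CSF1R alters the transcriptome of microglia. The members called were all lower with GW2580, and most of them belonged to the core. Of the 45 members tested, 9 were called lower and 0 higher, a call being a difference of more than 2-fold with an edgeR quasi-likelihood p below 0.05 before adjustment. Of all 28419 genes tested, 6.70% were called lower and 4.01% higher. The 9 were the core genes Psma2, Psma7, Psmb1, Psmb2, Psmb3, Psmb5 and Psmb11, the activator Psme2 and the assembly factor Psmg3. At any fold change 17 members had an unadjusted p under 0.05, all lower, against a background of 8.12% lower and 6.61% higher. After Benjamini-Hochberg adjustment over all genes 0 members and 0 genes were called, and the smallest adjusted p was 0.280. All 5 GW2580 libraries were below all 5 vehicle libraries for 4 members (Psma2, Psmb5, Psmb7 and Psmd8), against 0.985% of all genes, and the reverse held for 0 members and 2.04% of all genes. Of the 9 members called, Psma7, Psmb11, Psme2 and Psmg3 had exact two-sided permutation p-values over 0.05 (0.0556 to 0.103).

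The particles were set side by side by the median log2 fold change of their members, where -1 is a level lower by 2-fold. The median was -0.98 over 15 core genes, of which 7 were called lower and 12 had an unadjusted p under 0.05. Over 19 cap genes it was -0.41, with 0 called and 0 at an unadjusted p under 0.05 by edgeR. The values were below 0 for 15 of 15 core genes and 17 of 19 cap genes, and for 15 of 19 cap genes when scaled by library size alone or by the upper quartile. Of all genes tested 51.6% were below 0. With the length trend of protein-coding genes above 20 CPM removed, 11 of 15 core and 4 of 19 cap genes were below 0. With the percentage of records on no annotated exon as a covariate, 14 of 15 core and 11 of 19 cap genes were. The 5 activators had a median of -0.40 with 1 called (0.20 with the mean of the glial and neuronal markers as a covariate), and the 3 assembly factors one of -0.84 with 1 called. Over all genes tested the median was -0.03. Scaling by library size alone moved that median to 0.23, the core to -0.86 and the cap to -0.28.

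**Figure D2:**
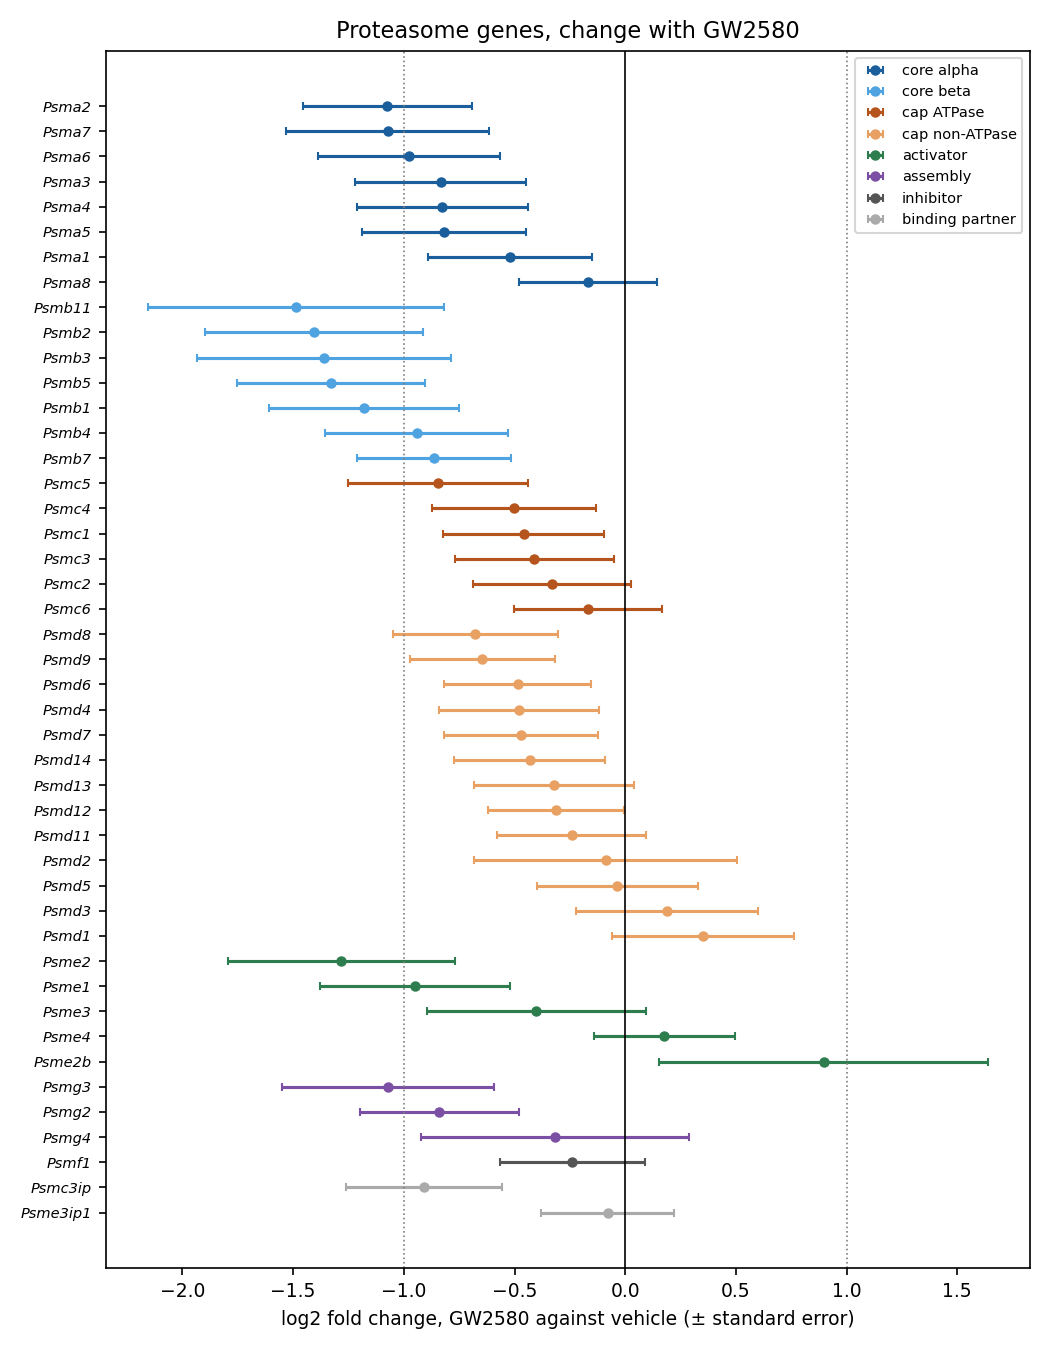
Log2 fold change of GW2580 against vehicle for each of the 45 members tested, with its standard error, grouped by particle; dotted lines mark a 2-fold difference. All 15 core genes lie below 0, and of the 19 cap genes Psmd1 and Psmd3 lie above it, joined by Psmd2 and Psmd5 when scaled by library size alone or by the upper quartile.

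The beta subunits showed the largest differences, with a median log2 fold change of -1.33 over 7 genes, all with an unadjusted p under 0.05. Psmb5 (chr14:54614120-54617995, minus strand), whose promoter window is shown above, was at 103, 156, 125, 120 and 83.8 CPM in Vehicle 1 to 5 and at 21.9, 74.1, 59.1, 16.3 and 61.8 CPM in GW2580 1 to 5. The groups did not overlap, and GW2580 4 and GW2580 1 were the lowest. The log2 fold change was -1.33 ± 0.42 (SE), with an edgeR quasi-likelihood p of 0.00727 and an exact two-sided permutation p of 0.00794, the smallest that 5 against 5 libraries allow. The microRNA gene Mir686 shares 12.5% of the exon bases of Psmb5 on the same strand, and fragments there are ambiguous and stayed out of the counts.

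Psmb2 was at 303, 359, 328, 310 and 143 CPM in Vehicle 1 to 5 and at 51.0, 146, 106, 29.8 and 212 CPM in GW2580 1 to 5. The lowest vehicle library, Vehicle 5, lay below GW2580 2 and GW2580 5, and the log2 fold change was -1.41 ± 0.49 with an edgeR p of 0.0127. Psmb3 likewise had Vehicle 5 below GW2580 2 and GW2580 5, at 323, 334, 289, 272 and 95.2 CPM with vehicle and 37.0, 124, 86.1, 22.9 and 241 CPM with GW2580 (log2 fold change -1.36 ± 0.57). Psmb7 was at 56.2, 83.5, 64.6, 66.3 and 66.5 CPM with vehicle and 26.7, 52.6, 47.4, 15.3 and 43.5 CPM with GW2580. Its groups did not overlap, but at a log2 fold change of -0.86 ± 0.35 it did not pass 2-fold. Psmb1 (-1.18) and Psmb4 (-0.94), structural subunits of the ring, also had an unadjusted p under 0.05.

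Psmb11 had the lowest log2 fold change of the core (-1.49 ± 0.67), but its 160 counts over all libraries make it uncertain. It was at 1.88, 3.57, 1.17, 0.919 and 0.281 CPM with vehicle and 0.205, 0.329, 0.278, 0.805 and 1.15 CPM with GW2580, and the groups overlapped.

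The 8 alpha subunits had a median log2 fold change of -0.83, and 5 of them had an unadjusted p under 0.05. Psma2 (chr13:14613242-14625673, plus strand) was at 140, 197, 167, 157 and 106 CPM in Vehicle 1 to 5 and at 48.3, 105, 87.7, 28.3 and 95.9 CPM in GW2580 1 to 5. The groups did not overlap, although GW2580 2 lay close to Vehicle 5, and the log2 fold change was -1.07 ± 0.38 (edgeR p = 0.0139, exact permutation p = 0.00794). Psma7 was at 298, 337, 273, 282 and 122 CPM with vehicle and 64.0, 162, 123, 43.0 and 231 CPM with GW2580. It had the same log2 fold change of -1.07, but Vehicle 5 lay among the GW2580 libraries. Psma6 had a log2 fold change of -0.98 ± 0.41 and an edgeR p of 0.0323. The smallest differences of the alpha subunits were those of Psma1 (-0.52 ± 0.37) and Psma8 (-0.17 ± 0.31), and neither passed the test.

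**Figure D3:**
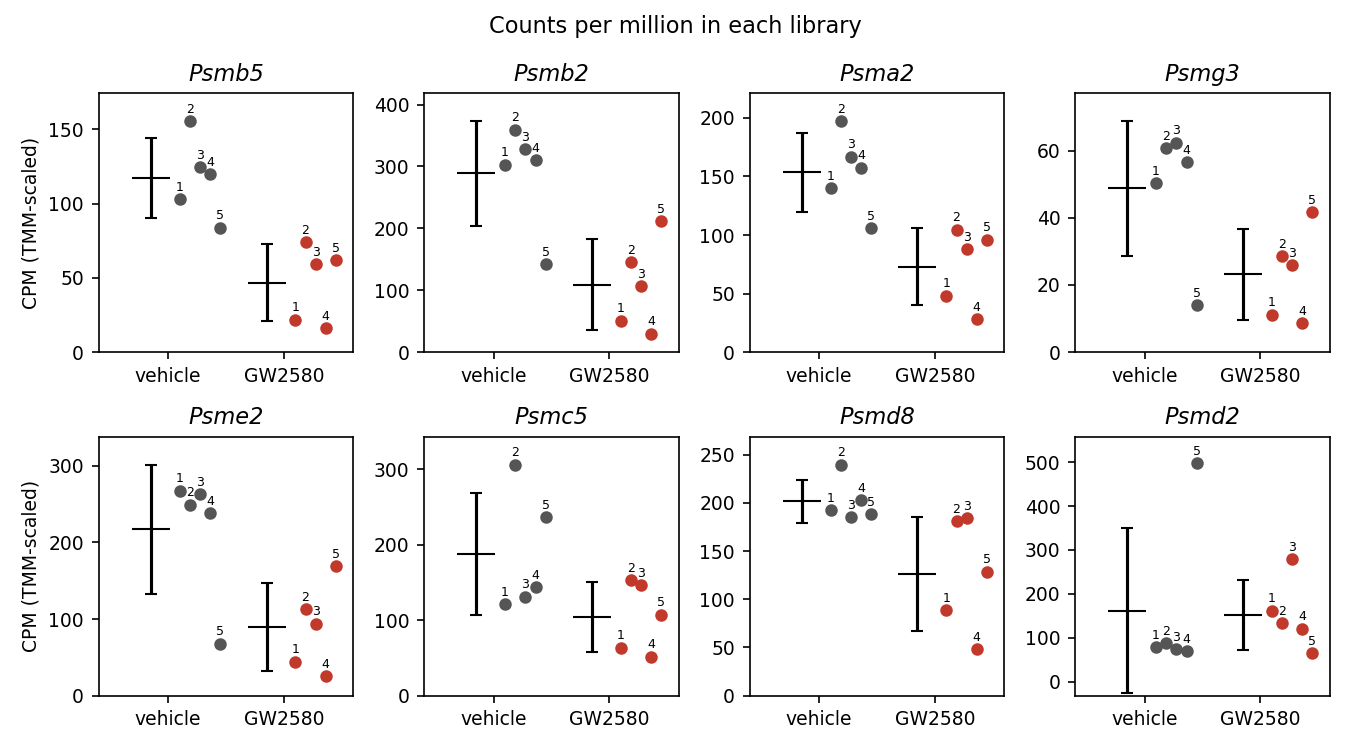
CPM of 8 proteasome genes in each library, scaled by TMM; numbers beside the points are replicate numbers and bars are the mean and SD of 5 libraries. For Psmb5, Psma2 and Psmd8 the groups do not overlap, and for Psmd2 the highest library is Vehicle 5 at 498 CPM.

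In the cap, 0 of the 6 ATPases and 0 of the 13 non-ATPase genes were called, against 6.70% of all genes called lower and 4.01% higher. The ATPases had a median log2 fold change of -0.43. Psmc5 had the smallest p of them, at 122, 306, 131, 144 and 236 CPM in Vehicle 1 to 5 and 63.5, 153, 147, 51.8 and 107 CPM in GW2580 1 to 5 (log2 fold change -0.85 ± 0.41, edgeR p = 0.0560, exact permutation p = 0.0952). Its groups overlapped, since GW2580 2 and GW2580 3 lay above Vehicle 1, 3 and 4. Psmc5 had an unadjusted p under 0.05 in 10 of 29 alternatives, among them the other 3 scalings and DESeq2, at a log2 fold change of -0.35 without Vehicle 2 and Vehicle 5 and of -1.02 to -0.60 with 1 library left out. Psmc4 (-0.50 ± 0.37), Psmc2 (-0.33 ± 0.36) and Psmc6 (-0.17 ± 0.33) did not pass the test.

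The non-ATPase genes had a median of -0.32. Psmd8, a lid subunit, was at 192, 240, 185, 203 and 188 CPM with vehicle and 88.5, 181, 184, 48.3 and 129 CPM with GW2580. Its groups did not overlap, but GW2580 3 lay just under Vehicle 3. At a log2 fold change of -0.68 ± 0.37 the edgeR p was 0.0914 (under 0.05 in 3 of 29 alternatives) and the exact permutation p 0.00794. Psmd9, a chaperone of the ATPase ring, had -0.65 ± 0.33 with an edgeR p of 0.0689 (under 0.05 in 7 of 29 alternatives) and an exact permutation p of 0.0159. The ubiquitin receptor Psmd4 had -0.48 ± 0.36. Psmd5, another such chaperone, had -0.04 ± 0.36. Psmd1, which with Psmd2 forms the scaffold of the cap, had the highest value of the cap at 0.35 ± 0.41. It is named after its values were seen.

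Psmd2 showed how far 1 library could set a value. It was at 78.5, 87.7, 73.1, 69.7 and 498 CPM in Vehicle 1 to 5 and at 161, 134, 279, 120 and 64.3 CPM in GW2580 1 to 5. Its log2 fold change was -0.09 ± 0.59 over all libraries and 0.97 without Vehicle 5. Without Vehicle 5 and GW2580 5 it was 1.06, and Psmd2 was then the 1 member of 44 called higher. The share of all genes called higher by that rule was not computed there, while 6.65% were higher at an adjusted p under 0.05 by edgeR.

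Of the activators, Psme2 was called lower, and its partner Psme1 had an unadjusted p under 0.05 without passing 2-fold. Psme2 was at 267, 250, 263, 238 and 67.7 CPM with vehicle and 44.4, 113, 94.1, 25.0 and 169 CPM with GW2580 (log2 fold change -1.28 ± 0.51, edgeR p = 0.0256, exact permutation p = 0.0635). Psme1 was at 263, 274, 266, 268 and 141 CPM with vehicle and 73.5, 184, 165, 38.4 and 167 CPM with GW2580 (-0.95 ± 0.43, edgeR p = 0.0437, exact permutation p = 0.0317). In both, Vehicle 5 was the 1 vehicle library that lay among the GW2580 libraries. Psme3 had a log2 fold change of -0.40 ± 0.50, with Vehicle 5 at 275 CPM against 53.8 to 82.0 CPM in the other vehicle libraries. Psme4 (0.18 ± 0.32) and Psme2b (0.90 ± 0.74), a copy related to Psme2 with 116 counts in all and 24.5% of its exon bases shared with 9930111J21Rik1 on the same strand, did not pass the test.

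Among the assembly factors, Psmg3 was at 50.2, 60.6, 62.3, 56.6 and 13.9 CPM with vehicle and 11.1, 28.7, 25.9, 8.66 and 41.6 CPM with GW2580 (log2 fold change -1.07 ± 0.48, edgeR p = 0.0423, exact permutation p = 0.103). Psmg2 had a log2 fold change of -0.84 ± 0.36 with an edgeR p of 0.0347. Psmg4 was at 40.8 CPM in GW2580 5 and at 2.75 to 9.69 CPM in the other GW2580 libraries, against 7.81 to 19.5 CPM with vehicle (-0.32 ± 0.61). Its log2 fold change was -1.53 without GW2580 5 and -1.72 without Vehicle 5 and GW2580 5, where it was called lower. The inhibitor Psmf1 had a log2 fold change of -0.24 ± 0.33, and 18.2% of its exon bases are shared with Tmem74b on the opposite strand. Of the binding partners, Psmc3ip, which acts in meiotic recombination, had -0.91 ± 0.35 at 1.89 to 7.70 CPM (edgeR p = 0.0220, exact permutation p = 0.0159), and Psme3ip1, with 13.8% of its exon bases under other genes, had -0.08 ± 0.30.

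The other genes of the pathway were taken from lists. Of all genes tested 6.70% were called lower and 4.01% higher, so 0 called in lists this short is no result about them. Of 4 ubiquitin genes 0 were called, with a median of -0.81, and Ubb, a polyubiquitin gene, had a log2 fold change of -0.84 ± 0.52. Of 11 receptors, deubiquitinases and shuttles at the proteasome 0 were called, with a median of -0.14, and Sem1, a small lid subunit, had -0.70 ± 0.74 while the deubiquitinase Uchl5 had -0.39 ± 0.31. Pomp, which the core needs to mature, was called lower, at 330, 395, 323, 292 and 70.6 CPM with vehicle and 48.3, 129, 107, 27.9 and 247 CPM with GW2580 (-1.33 ± 0.57, edgeR p = 0.0350, exact permutation p = 0.0873). Among 4 genes that control proteasome genes 0 were called (median 0.17), with Nfe2l2 at 0.11 ± 0.34 and Ddi2, which shares 58.5% of its exon bases with Rsc1a1 on the same strand, at 0.45 ± 0.41. Of 3 unfoldase genes 0 were called, with Vcp at -0.00319 ± 0.590 and Faf2 at 0.25 ± 0.31. The immunoproteasome subunit Psmb10 was at 236, 304, 314, 322 and 76.3 CPM with vehicle and 52.9, 174, 145, 37.8 and 168 CPM with GW2580 (-1.12 ± 0.50, edgeR p = 0.0427, exact permutation p = 0.119).

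By library, the difference between the particles did not follow the groups in full. The mean log2 CPM of the core minus that of the cap was between -0.05 and -0.10 in Vehicle 1 to 4 and -1.40 in Vehicle 5. With GW2580 it was between -0.94 and -1.43 in GW2580 1 to 4 and -0.21 in GW2580 5. So Vehicle 5 lay with GW2580 1 to 4 and GW2580 5 nearer to Vehicle 1 to 4. GW2580 4 was the lowest of the 10 libraries for 38 of the 45 members, and Vehicle 2 was the highest for 21.

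**Figure D4:**
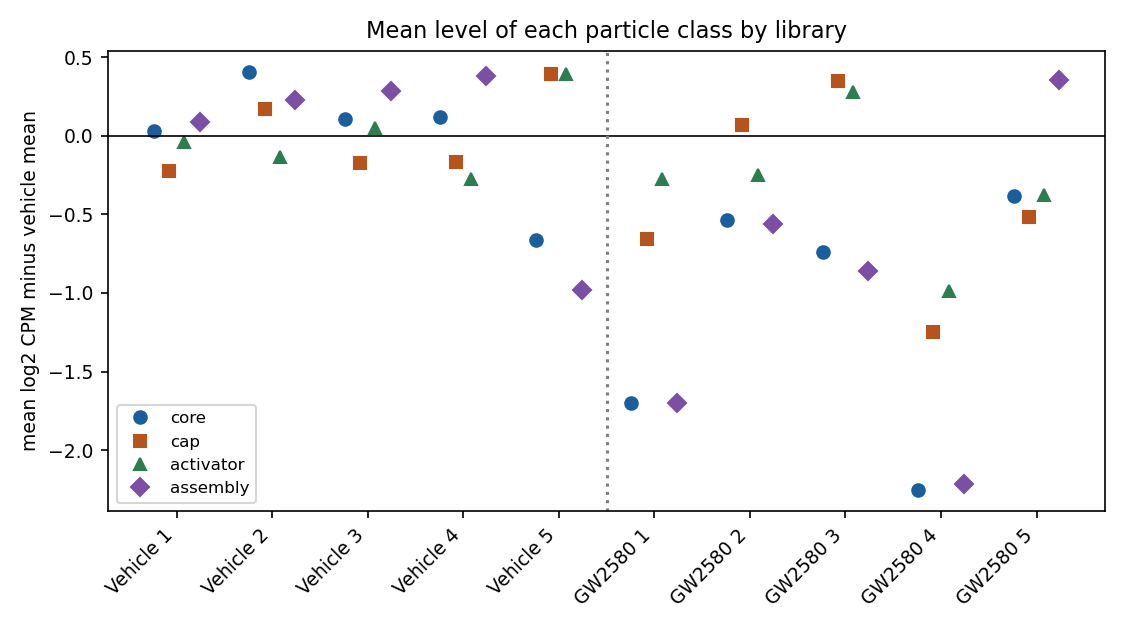
Mean log2 CPM of the members of the core, cap, activators and assembly factors in each library, minus the mean over the 5 vehicle libraries. Core and assembly factors are lowest in GW2580 4 and GW2580 1 and also low in GW2580 3 and Vehicle 5, the libraries with the highest cap.

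The count of members called lower rested on a few libraries. Without GW2580 1 and GW2580 4 together, a pair left out after seeing the data because they had the highest percentages of records on no annotated exon, 0 members were called (background 2.38%), and the medians were -0.54 for the core and -0.04 for the cap. With that percentage as a covariate 0 members were called as well (background 1.67%), with medians of -0.75 and -0.03. Without Vehicle 5 and GW2580 5 together 19 were called (background 15.2%), of which 13 were core genes. At an adjusted p under 0.05 by edgeR, 16 members were then lower (11.1% of all genes) and Psmd2 was higher (6.65% of all genes). In core minus cap, Vehicle 5 (-1.40) and GW2580 5 (-0.21) each lay nearer to the other group. Leaving both out widens the gap between the groups by construction, so these counts are no support for it. Without Vehicle 2 and Vehicle 5, which had the most glial transcripts, 11 were called (background 3.42%).

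The values of single members moved with them. Without GW2580 1 and GW2580 4 the log2 fold changes of Psmb5 (-0.84) and Psmb2 (-0.89) kept an unadjusted edgeR p under 0.05. Those of Psma2 (-0.67), Psma6 (-0.54), Psma7 (-0.60), Psmb3 (-0.79), Psmb7 (-0.49), Psmb11 (-1.40), Psme1 (-0.49), Psme2 (-0.78), Psmg2 (-0.43), Psmg3 (-0.60) and Psmc3ip (-0.56) did not. Psmb5 and Psmb2 were the only 2 of 44 members with such a p, so Psmb1, Psmb4, Psma3 and Psma5 lost it as well. The share of all genes with such a p was not computed in this setting. A count of 2 of 44 is therefore not read as a result about Psmb5 and Psmb2. Without Vehicle 5 and GW2580 5 the values were larger, at -1.65 for Psmb5, -2.06 for Psmb2, -2.27 for Psmb3, -1.40 for Psma2, -1.70 for Psma7, -1.97 for Psme2, -1.31 for Psme1 and -1.73 for Psmg3. Single libraries mattered too: 3 members were called without GW2580 1 (background 3.92%), 4 without GW2580 4 (5.95%), 4 without Vehicle 2 (4.66%) and 19 without GW2580 5 (13.2%). The test of sex by treatment gave an unadjusted edgeR p under 0.05 for 1 of the 45 members, no larger a share than the 2.52% of all genes.

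The fold changes of the members also followed the length of their exons. Core genes had a median of 1103 exon bases and cap genes one of 1635. Of the 14 members shorter than 1200 bases 7 were called lower, and of the 31 longer members Psma7 and Psmb11 were. Protein-coding genes above 20 CPM showed the same order. Below 1200 bases their median log2 fold change was -0.98 (546 genes, 32.6% called lower), from 1200 to 1600 bases -0.58 (459 genes, 19.2%), and above 1600 bases 0.07 (6367 genes, 4.41%). Over the 45 members, log2 fold change and log2 exon length had a Pearson's r of 0.46 and a Spearman's rho of 0.62 across genes that share the same 10 libraries. Within the 15 core genes r was 0.16 and rho 0.46, and within the 19 cap genes r was 0.65 and rho 0.75. Psma3, the longest of the standard alpha subunits at 2915 bases, lay off this relation with a log2 fold change of -0.83 ± 0.39, and is named after its values were seen.

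Between 1200 and 1600 bases, where both particles have members, the median was -0.82 over 4 core genes (Psma1, Psma4, Psma5 and Psma7) and -0.48 over 9 cap genes. When the trend with length of protein-coding genes above 20 CPM was removed in each library, 0 members were called, the core median was -0.13, the cap median 0.11, and the median over all genes 0.17. That fit and the length limits were chosen after seeing the data. When the trend was fitted over all genes, 8 members were called and the medians were -0.93 for the core and -0.34 for the cap. The share of all genes called lower was not computed for these fits. Whether the lower counts of short genes come from the cells or from the RNA and libraries was not tested.

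**Figure D5:**
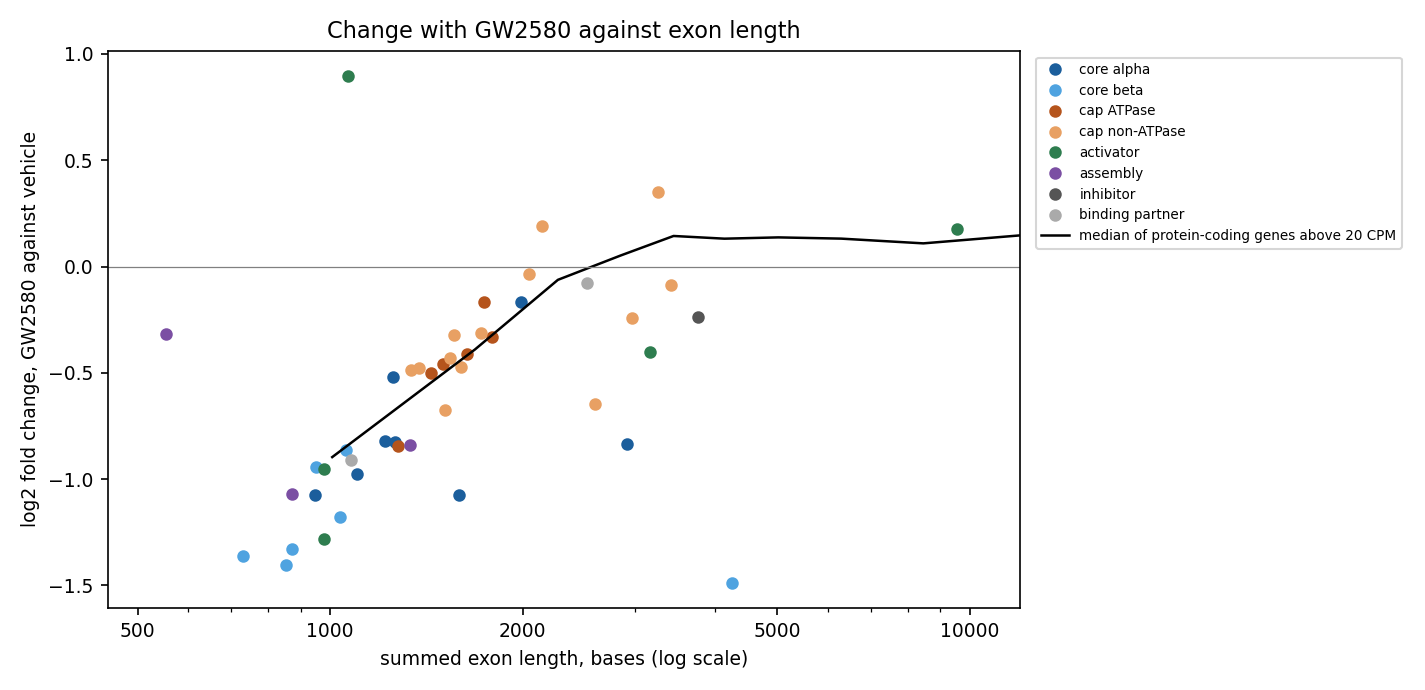
Log2 fold change of GW2580 against vehicle for the 45 members tested, plotted against summed exon length in bases (log scale), with the median of protein-coding genes above 20 CPM in 10 bins of exon length as a line. The bin of shortest genes has a median of -0.90, and most core genes lie at that short end.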

How the data were processed

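The RNA of microglia from 10 mice, 5 per group, was sequenced after SMART-Seq v4 amplification. Read pairs were trimmed, aligned with STAR to GRCm38 and counted on the exons of RefSeq genes with featureCounts (1.6.3 in the file headers), without regard to strand. The authors deposited these fragment counts per gene without normalization, with the exon length of each gene in bases (per the file headers) and, per library, counting records by class.

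The 28419 genes that exceeded 1 CPM in 3 or more libraries were scaled by TMM and tested with edgeR 4.0.16 (R 4.3.3, quasi-likelihood F test, treatment as the only term), with limma 3.58.1 and DESeq2 1.42.0 as alternatives. A call needs more than a 2-fold difference and a p below 0.05 before adjustment, the study's thresholds, and Benjamini-Hochberg adjustment ran over all genes tested. Single genes were also tested by exact two-sided permutation in Python 3.11.15 (scipy 1.17.1). Class levels are means of log2 CPM (prior count 2). The count test was checked on simulated data.

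The members, gene lists and markers were chosen with earlier results of these data known. The genes named are the catalytic subunits, the 2 of smallest and 2 of largest p and the highest and lowest length-scaled level in each core and cap class, all activators, assembly factors, Psmf1, Psma8, Psmb11 and Psmc3ip, and in each list of related genes the one of smallest p and of highest level. Of the related genes so chosen, 1 is not reported here. Psmb1 is named as a called member, and members of counts of 5 or fewer are named with them. Paaf1 was not analysed here. Between 24.3 and 43.3% of records were assigned to a gene, and records on no exon, ambiguous or aligned to more than 1 place stayed out of library sizes and tests. Reads were not tied to single molecules by identifiers, so they are not independent and the spread between mice was used in each test.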

Additional observations from a re-analysis of the deposited data

Results flagged for a closer look

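For 11 of the 34 genes and class means examined, Vehicle 5 stood apart from the other vehicle libraries, with a gap on the log2 scale to its nearest neighbour of over 0.71 of the group's range. It was low for Psma1 (103 CPM), Psma7 (122 CPM), Psmb2 (143 CPM), Psmb3 (95.2 CPM), Psme1 (141 CPM), Psme2 (67.7 CPM), Psmg3 (13.9 CPM), Psmg4 (7.81 CPM) and the mean log2 CPM of the assembly factors (3.95). It was high for Psmd2 (498 CPM) and Psme3 (275 CPM). The same library held the most choroid plexus and ependyma transcripts (25666 CPM), and their part in these values was not tested. For 1 more gene Vehicle 2 was high for Psmd9 (49.5 CPM). Chance sets apart a library in about 1 in 20 groups, and the members are not independent of each other.

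For Psmb11 the fitted effect of GW2580 was higher in female than in male mice by 3.25 on the log2 scale (edgeR quasi-likelihood interaction, unadjusted p = 0.0164, adjusted p = 1.00), from 160 counts in all. It was 1 of 45 members with an unadjusted p under 0.05, no larger a share than the 2.52% of all genes, so no difference between the sexes was shown.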

How the results depend on the processing

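The number of members called lower, 9 of 45 tested, was 5 with scaling by library size alone, 17 at any fold change, 0 after Benjamini-Hochberg adjustment, 0 with the percentage of records on no annotated exon as a covariate, 0 with the length trend of protein-coding genes removed, 0 without GW2580 1 and GW2580 4, and 19 without Vehicle 5 and GW2580 5. Leaving out 1 library gave 3 (without GW2580 1) to 19 (without GW2580 5), with 4 without GW2580 4 or Vehicle 2 and 5 without Vehicle 1. All other tests, scalings, filters, covariates and depths gave 7 to 12. For settings without a background given above, the share of all genes called lower was not computed. The count called higher was 1 (Psmd2) without Vehicle 5 and GW2580 5 or without Vehicle 2 and Vehicle 5. The share of all genes called higher was not computed in either setting.

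The replicate number as a block gave 10 called lower. The correlations of same-numbered libraries were 0.08, 0.13, -0.05, -0.07 and -0.39. They did not show a pairing by number, and they cannot decide whether same-numbered mice were handled together.

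The core median moved to -0.13 with the length trend of protein-coding genes above 20 CPM removed, where the cap reversed to 0.11, the activators to 0.018 and the assembly factors to 0.064. The activators also reversed to 0.20 with the glial marker covariate and 0.13 with the no-exon covariate, and the assembly factors moved to -1.72 without Vehicle 5 and GW2580 5. The difference between core and cap medians was -0.57, -0.24 with that length trend removed, and -0.97 without Vehicle 5 and GW2580 5.

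Of 862 values for 30 single members 679 kept direction and side of the threshold, 107 lost and 22 gained an unadjusted p under 0.05, and 54 changed sign. With the length trend of protein-coding genes removed these were Psma1 0.23, Psma8 0.10, Psmb4 0.028, Psmb7 0.058, Psmc2 0.0032, Psmc3ip 0.032, Psmc4 0.080, Psmc6 0.22, Psmd2 0.043, Psmd4 0.14, Psmd5 0.24, Psme1 0.018, Psmg3 0.064 and Psmg4 0.71. With the no-exon covariate they were Psma8 0.064, Psmc2 0.035, Psmc6 0.18, Psmd2 0.51, Psmd5 0.36, Psme3 0.13 and Psmf1 0.054. Without GW2580 1 and GW2580 4 they were Psma8 0.081, Psmc2 0.042, Psmc6 0.15, Psmd5 0.20, Psmf1 0.061 and Psmg4 0.25. Psmd2 was also above 0 with the glial covariate (0.72), limma-voom (0.29), protein-coding genes alone (0.083), the replicate block (0.46), library size (0.13), sex (0.047), upper quartile scaling (0.19), and without Vehicle 2 and 5 (1.03) or Vehicle 5 and GW2580 5 (1.06). For Psmd5 the values were 0.15 (glial covariate), 0.022 (length trend of all genes), 0.057 (protein-coding genes), 0.12 (library size), 0.074 (upper quartile), 0.31 (without Vehicle 2 and 5) and 0.25 (without Vehicle 5 and GW2580 5). For Psme3 they were 0.20 (glial covariate), 0.47 (without Vehicle 2 and 5) and 0.38 (without Vehicle 5 and GW2580 5). Leaving out 1 library gave ranges of -0.39 to 0.036 for Psmc6, -0.43 to 0.97 for Psmd2, -0.29 to 0.25 for Psmd5 and -0.70 to 0.34 for Psme3. The cause of these changes was not tested. With 5 libraries per group and 12550418 fragments in the smallest, members near 1 CPM (Psmb11, Psme2b) have a large counting error.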
